A study of Mus musculus with 19 samples.

Results

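The subject is the hepatic response to furosemide in IL-6 knockout mice, taken as the 3 knockout libraries with pre-renal azotemia (PRA) against the 4 knockout vehicle libraries, 7 of the 19 libraries of a mouse liver RNA sequencing study. They were chosen by their sample labels alone, so no measured value entered the choice. Mice of the C57BL/6 strain, IL-6 knockout or wild type (WT), received 2 intraperitoneal injections 3 h apart, each of 4 mg furosemide (the PRA groups) or of vehicle, and livers were collected 6 h after the first injection. The groups used here are knockout PRA (n = 3), knockout vehicle (n = 4), WT PRA (n = 4), WT vehicle (n = 4) and non-injected WT mice labelled normal (n = 4). All 3 knockout PRA and 4 knockout vehicle libraries thus share the whole-body IL-6 deficiency and the 2 injections, and no non-injected knockout liver is among the samples analysed here. The labels do not state the ages, the knockout allele or whether each library is a separate animal, so each p-value below reflects how these libraries vary, and that variation may be technical.

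Furosemide is a loop diuretic; in pre-renal azotemia the kidney is poorly perfused and nitrogenous waste builds up in the blood. Interleukin-6 is the cytokine that, through its receptor, gp130 and the transcription factor STAT3, drives acute phase protein genes in hepatocytes. Hepatocytes also answer adrenal glucocorticoids through the glucocorticoid receptor, which raises genes of gluconeogenesis and amino acid breakdown and acts together with STAT3 and C/EBP factors at several acute phase genes. The comparison asks which gene changes after furosemide are present in livers that lack IL-6.

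The 7 knockout libraries held 42905740 to 64173186 counts in genes, and all 19 libraries held 32073865 to 74041441. Mitochondrially encoded genes took 7.69% to 8.4% of counts in knockout PRA libraries and 7.46% to 8.16% in knockout vehicle libraries. Il6 was low in all 7 knockout libraries, at 0.0535, 0.408 and 0.106 CPM (counts scaled to library size with TMM factors) in knockout PRA and 0.0162 to 0.0779 CPM in knockout vehicle, and it averaged 0.0404 CPM in WT PRA, so its counts cannot check the genotype labels. Knockout PRA replicate 2 had 16 Il6 counts, above the 3 counts taken as the floor, and the other 6 knockout libraries had 1 to 5. Abhd1, a hydrolase gene, was at 54.5 to 62.6 CPM in knockout PRA and 48.4 to 65.7 CPM in knockout vehicle libraries, against group means of 3.45, 3.74 and 2.8 CPM in WT PRA, WT vehicle and normal livers, which divided the libraries as labelled. Of 12 hepatocyte markers, 3 rose and none fell in knockout PRA, where 7.96% and 8.38% of all genes tested did. Their summed level was 124156 to 158844 CPM in knockout PRA and 108925 to 114011 CPM in knockout vehicle. The libraries come from whole liver, so for a marker of any cell type fewer cells and less RNA per cell cannot be told apart.

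Furosemide changed the knockout liver broadly. Of 15570 genes tested with edgeR's quasi-likelihood test, 1240 were higher (7.96%) and 1304 were lower (8.38%) in knockout PRA than in knockout vehicle at a Benjamini-Hochberg adjusted p at or under 0.05, the threshold used throughout. Of these, 397 rose and 469 fell at least 2-fold, and 118 rose and 86 fell at least 4-fold. The first principal component of the 7 knockout libraries held 45.2% of the variance of log CPM, with the PRA libraries at 36.4 to 47.7 and the vehicle libraries at -35 to -23.4. The balance of directions depended on scaling: 48.7% of the genes past the threshold were higher with TMM, 50.1% with RLE and 35.3% with upper quartile factors, under which all genes tested had a median of -0.07 on the log2 scale. Without knockout PRA replicate 2 the number of lower genes was 763, and that of higher genes 913.

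Mt2 and its neighbour Mt1 encode metallothioneins, small cysteine-rich proteins that bind zinc and copper and whose genes answer both metals and glucocorticoids. Mt2 (ENSMUSG00000031762) was at 863, 657 and 579 CPM in knockout PRA libraries, against 13.6, 51.9, 30.5 and 18.5 CPM in knockout vehicle libraries. The groups did not overlap, with a log2 fold change of 4.61 ± 0.46 (standard error of the fit, as throughout; edgeR adjusted p = 7.63e-06). Mt2 stood at 1942 ± 283 CPM in WT PRA and 96.2 ± 44.9 CPM in WT vehicle (SD, n = 4 each), and non-injected livers held 3.83 ± 0.372 CPM (n = 4). The fold changes of the 2 genotypes were not told apart, with a difference of 0.28 (edgeR adjusted p = 0.954). Mt1 was at 1299, 1019 and 865 CPM in knockout PRA and at 40.2, 121, 86.3 and 67.9 CPM in knockout vehicle libraries. Its log2 fold change was 3.75 ± 0.41 in the knockout (edgeR adjusted p = 1.73e-05) and 3.75 in WT.

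Fam107a, which encodes an actin-associated protein whose gene is induced by stress and glucocorticoids in brain, had the largest rise among genes named by a rule on size, level and separation. It was at 28.2, 55.1 and 36.8 CPM in knockout PRA and at 0.37, 2.99, 0.491 and 0.777 CPM in knockout vehicle libraries. All PRA libraries were above all vehicle libraries, while vehicle replicate 2 stood above its group. The log2 fold change was 5.06 ± 0.61 (edgeR adjusted p = 4.67e-05) and 6.20 without that vehicle library. WT livers averaged 14.5 ± 4.62 CPM after PRA and 1.21 ± 0.31 CPM after vehicle (SD, n = 4 each), a log2 fold change of 3.56, and the difference between the responses did not pass the test (edgeR adjusted p = 0.634).

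Inhbb encodes the beta-B subunit of activins and inhibins, secreted signals of the TGF-beta family. It was at 20.4, 25.5 and 24.1 CPM in knockout PRA libraries and at 1.91, 1.48, 2.65 and 1.88 CPM in knockout vehicle libraries. The groups did not overlap, and the log2 fold change of 3.56 ± 0.18 had the smallest standard error of the 4 genes (edgeR adjusted p = 9.56e-11). In WT livers it averaged 18.1 ± 1.77 CPM after PRA and 2.85 ± 0.644 CPM after vehicle (SD, n = 4 each).

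Cyp7a1, the rate-limiting enzyme of the classic bile acid pathway, fell. It was at 8.72, 5.15 and 13.7 CPM in knockout PRA libraries and at 69.1, 69.2, 79.3 and 90 CPM in knockout vehicle libraries. No PRA library came near the vehicle libraries, and the log2 fold change was -3.06 ± 0.50 (edgeR adjusted p = 0.000738). WT livers averaged 22 ± 14.3 CPM after PRA and 118 ± 43.6 CPM after vehicle (SD, n = 4 each), a log2 fold change of -2.41, and the difference of -0.65 did not pass the test (edgeR adjusted p = 0.859).

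**Figure D1:**
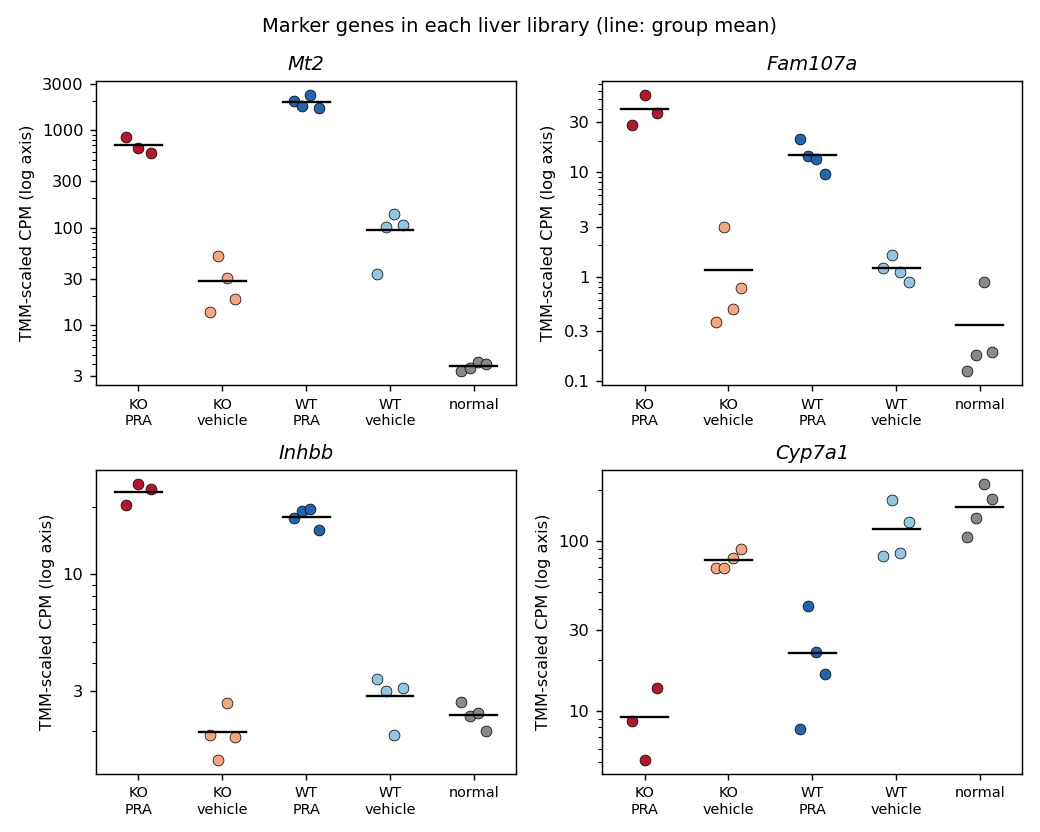
TMM-scaled CPM (log axis) of Mt2, Fam107a, Inhbb and Cyp7a1 in each library of the 5 groups, with a line at each group mean. In both genotypes every PRA library lies above every vehicle library for Mt2, Fam107a and Inhbb and below every vehicle library for Cyp7a1.

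The promoters of the rising genes are shown because metallothionein genes are known to answer metals through metal response elements, and glucocorticoid-induced genes through a response element built from the hexamer TGTTCT. The windows run from 250 bases before to 50 bases after a RefSeq start on GRCm38.p6 and are written 5′ to 3′ on the gene's strand; no window was in the table for Cyp7a1. Capitals mark the metal response element core (TGCACNC or TGCGCNC, either strand) in Mt2, at chr8:94172368-94172667 on the plus strand, and in Mt1, at chr8:94178839-94179138 on the plus strand. In Fam107a, at chr14:8309730-8310029, and Inhbb, at chr1:119422199-119422498, both on the minus strand, capitals mark TGTTCT or its reverse complement AGAACA.

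Mt2: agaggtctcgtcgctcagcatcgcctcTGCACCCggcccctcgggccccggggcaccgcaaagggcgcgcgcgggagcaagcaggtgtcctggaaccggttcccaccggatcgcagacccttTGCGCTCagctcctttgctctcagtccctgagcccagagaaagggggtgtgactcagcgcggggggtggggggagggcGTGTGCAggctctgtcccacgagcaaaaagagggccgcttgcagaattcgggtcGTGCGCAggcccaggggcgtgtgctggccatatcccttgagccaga
Mt1: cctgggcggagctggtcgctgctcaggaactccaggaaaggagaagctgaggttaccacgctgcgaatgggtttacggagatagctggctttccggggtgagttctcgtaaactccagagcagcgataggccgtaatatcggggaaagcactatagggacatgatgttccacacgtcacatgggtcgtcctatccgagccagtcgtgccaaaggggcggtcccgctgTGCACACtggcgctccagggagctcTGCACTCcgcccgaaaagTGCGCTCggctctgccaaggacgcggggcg
Fam107a: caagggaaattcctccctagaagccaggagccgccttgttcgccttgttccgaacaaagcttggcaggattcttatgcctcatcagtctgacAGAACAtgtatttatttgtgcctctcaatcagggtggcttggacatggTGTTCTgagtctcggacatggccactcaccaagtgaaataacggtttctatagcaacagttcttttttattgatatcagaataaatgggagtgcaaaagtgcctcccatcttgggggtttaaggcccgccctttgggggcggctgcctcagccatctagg
Inhbb: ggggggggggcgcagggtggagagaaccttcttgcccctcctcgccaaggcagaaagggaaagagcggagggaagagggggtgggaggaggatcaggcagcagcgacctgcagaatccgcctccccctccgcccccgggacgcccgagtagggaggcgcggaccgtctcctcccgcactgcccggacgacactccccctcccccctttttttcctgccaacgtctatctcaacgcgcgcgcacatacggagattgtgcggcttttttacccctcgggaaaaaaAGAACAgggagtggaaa

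The Mt2 window held 4 metal response element cores and the Mt1 window 3, where 25.7% of 32851 promoter windows held at least 1 and 1.97% held 3 or more. The core was also at 1 position in the Fam107a window shown and at 2 positions in the Inhbb window. TGTTCT on either strand was found at 2 positions in this Fam107a window and at 1 position in the Inhbb window, where 19% of all windows held it. It was in neither metallothionein window, nor in the window of the Fam107a start at chr14:8317558-8317857. The spaced inverted repeat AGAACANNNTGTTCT was in none of the windows of these 4 genes and in 0.00913% of all windows. TGACG, part of the cAMP response element, was in the Mt1 window and in the window of the upstream Fam107a start, each at 1 position, and in 20.8% of all windows. These matches describe letters in short windows and show no binding.

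The other large rises included signalling, stress and coagulation genes. Rasd1, a Ras-related G protein named for its induction by dexamethasone, was at 12.1, 15.3 and 13.6 CPM in knockout PRA, against 0.37 to 0.763 CPM in knockout vehicle. It rose by a log2 fold change of 4.47 ± 0.26 (edgeR adjusted p = 9.17e-10). Thbd, thrombomodulin, the endothelial receptor that turns thrombin toward anticoagulant protein C, was at 22.5, 27.7 and 31.4 CPM in knockout PRA and within 2.44 to 2.59 CPM in all 4 knockout vehicle libraries. Its log2 fold change was 3.44 ± 0.23 (edgeR adjusted p = 1.31e-08). Both genes separated the groups by wide margins, though lack of overlap was a condition for naming the largest rises. Cdkn1a, the p21 inhibitor of cyclin-dependent kinases, was at 286, 336 and 200 CPM in knockout PRA, against a wide 2.55 to 41.8 CPM in knockout vehicle. Its log2 fold change was 3.99 ± 0.71 (edgeR adjusted p = 0.0015), and 4.91 without vehicle replicate 1, the highest vehicle library. With the knockout groups fitted alone the adjusted p of Cdkn1a was 0.0588. Dusp8, a phosphatase that switches off stress kinases, averaged 5.11 ± 0.447 CPM in knockout PRA and 0.533 ± 0.193 CPM in knockout vehicle (SD, n = 3 and 4). Sftpa1, a surfactant protein, averaged 5.75 ± 0.684 CPM in knockout PRA and 0.668 ± 0.187 CPM in knockout vehicle. Both rose, with an edgeR adjusted p of 2.85e-05 for Dusp8 and 3.73e-07 for Sftpa1. Hmox1, heme oxygenase, was at 269, 175 and 140 CPM in knockout PRA and at 18.2 to 36.1 CPM in knockout vehicle, and rose by a log2 fold change of 3.04 ± 0.33 (edgeR adjusted p = 1.7e-05).

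Among the largest falls after Cyp7a1 were Tlr12, a receptor for profilin of protozoan parasites, and Dclk3, a kinase. Tlr12 was at 0.981, 1.22 and 1.02 CPM in knockout PRA and at 9.2, 4.88, 8.05 and 7.66 CPM in knockout vehicle. Dclk3 was at 1.8, 1.68 and 2.59 CPM in knockout PRA and at 6.49 to 18.4 CPM in knockout vehicle. Lack of overlap was a condition for naming these falls. The log2 fold changes were -2.80 ± 0.30 for Tlr12 and -2.58 ± 0.30 for Dclk3 (edgeR adjusted p = 3.77e-06 and 1.3e-05). Klhdc7a, Lhfpl2, Clec2h, C2cd4d, Ngfr and Cda fell by log2 fold changes of -2.46 to -1.82. Socs2, which restrains growth hormone signalling, and the hepatocyte transcription factor Onecut1 had log2 fold changes of -2.28 and -2.13 (edgeR adjusted p = 0.033 and 0.021). Both calls were lost when any 1 PRA library was left out, with an adjusted p of 0.117 for Socs2 and 0.0641 for Onecut1 without knockout PRA replicate 2, and without vehicle replicate 1 (0.0945 and 0.052); Socs2 was also lost without vehicle replicate 3 (0.0528). Nrep, Gbp11 and Abcd2, also among the 14 largest falls, had an adjusted p of 0.114, 0.0838 and 0.0585 without PRA replicate 2. Gbp11 was lost as well without PRA replicate 3 (0.0628), Abcd2 without PRA replicate 1 or 3 or vehicle replicate 3 (0.1, 0.0871 and 0.0754), and Nrep when any library other than vehicle replicate 2 was left out.

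Genes that answer glucocorticoids rose almost without exception. Of 26 such genes, 25 rose and none fell in the knockout, with a median log2 fold change of 1.90, where 7.96% of all genes tested rose and the median of all genes was 0 to 2 decimals. The exception, Tfcp2l1, had a log2 fold change of -0.20 (edgeR adjusted p = 0.556). Fkbp5, the co-chaperone that dampens the glucocorticoid receptor, was at 259, 291 and 337 CPM in knockout PRA and at 60.9, 115, 94.1 and 78.1 CPM in knockout vehicle. The ranges were well apart, with a log2 fold change of 1.76 ± 0.17 (edgeR adjusted p = 9.5e-07). Tsc22d3, the anti-inflammatory protein GILZ, was at 183, 257 and 224 CPM in knockout PRA and at 39.7 to 92.7 CPM in knockout vehicle (log2 fold change 2.01, edgeR adjusted p = 0.00241). Cebpd, a C/EBP factor of the acute phase, averaged 33.4 ± 4.45 CPM in knockout PRA and 8.1 ± 1.41 CPM in knockout vehicle (SD, n = 3 and 4; log2 fold change 2.04, edgeR adjusted p = 9.27e-08). In WT, 22 of the same 26 genes rose and 1 fell, with a median of 1.48, where 9.74% of all genes rose and 12.3% fell. The list was drawn up with earlier results of these data known, so its direction is a description.

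Genes of gluconeogenesis and the fasting state rose in part. Of 24, 14 rose and none fell in the knockout, with a median log2 fold change of 0.81, and 9 of the 19 that the glucocorticoid list does not hold rose. In WT, 10 of the 24 rose and none fell. The shares of all genes that rose and fell were 7.96% and 8.38% in the knockout and 9.74% and 12.3% in WT. Tat, tyrosine aminotransferase, was at 4476, 4686 and 4671 CPM in knockout PRA and at 672, 1503, 852 and 980 CPM in knockout vehicle (a fold change of 4.6, edgeR adjusted p = 0.00034). The PRA libraries lay close together and the vehicle libraries were spread. The forkhead factors Foxo1 and Foxo3, which insulin holds out of the nucleus, averaged 64.5 ± 8.31 and 51.2 ± 2.51 CPM in knockout PRA, against 23.4 ± 2.33 and 23.7 ± 3.19 CPM in knockout vehicle (SD, n = 3 and 4). Their log2 fold changes were 1.47 and 1.11 (edgeR adjusted p = 7.75e-06 and 4.79e-06). In WT, Foxo3 rose by 0.38, and the difference between the responses, 0.72, did not pass the test (edgeR adjusted p = 0.0694). Pck1, the cytosolic enzyme that commits carbon to gluconeogenesis, averaged 4777 ± 165 CPM in knockout PRA and 2704 ± 891 CPM in knockout vehicle. Igfbp1, a secreted binder of insulin-like growth factors, was at 789, 583 and 451 CPM in knockout PRA and at 34.1 to 89 CPM in knockout vehicle (log2 fold change 3.48 ± 0.50, edgeR adjusted p = 0.000213).

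Enzymes that break down amino acids and make urea rose in part. Of 35 genes of amino acid catabolism and transport, 15 rose and 1 fell in the knockout, with a median log2 fold change of 0.34. Among all genes tested, 7.96% rose and 8.38% fell in the knockout. Sds, serine dehydratase, was at 920, 1305 and 739 CPM in knockout PRA and at 107, 285, 214 and 288 CPM in knockout vehicle. Got1, the cytosolic aspartate aminotransferase, was at 923, 1215 and 889 CPM in knockout PRA and at 197, 401, 415 and 422 CPM in knockout vehicle. Both genes kept the groups apart, with log2 fold changes of 2.14 ± 0.36 and 1.49 ± 0.24 (edgeR adjusted p = 0.00081 and 0.000333). Slc38a2, a sodium-coupled neutral amino acid transporter that also answers osmotic stress, averaged 147 ± 13.7 CPM in knockout PRA and 45.8 ± 4.8 CPM in knockout vehicle (SD, n = 3 and 4; log2 fold change 1.68, edgeR adjusted p = 3.72e-06). Bcat2, a branched-chain aminotransferase, fell to 12.1 ± 0.806 CPM in knockout PRA, against 23.7 ± 2.39 CPM in knockout vehicle. Without knockout PRA replicate 3, 9 of the 35 rose. Of 19 urea cycle and glutamine genes, 7 rose and 1 fell, but without vehicle replicate 1 only 2 rose. Slc25a15, the mitochondrial ornithine carrier, averaged 455 ± 78.1 CPM in knockout PRA and 208 ± 41 CPM in knockout vehicle (a fold change of 2.18, edgeR adjusted p = 7.84e-05). Glul, the glutamine synthetase of pericentral hepatocytes, was at 760, 651 and 921 CPM in knockout PRA and at 1507, 1434, 1249 and 1102 CPM in knockout vehicle (log2 fold change -0.77, edgeR adjusted p = 0.00369). In WT its log2 fold change was -0.12 (edgeR adjusted p = 0.632), and the difference did not pass the test (edgeR adjusted p = 0.328).

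Immediate early genes, which are transcribed within minutes of a signal without new protein synthesis, rose for the most part. Of 25, 18 rose and none fell, with a median log2 fold change of 1.60, and 12 rose without knockout PRA replicate 2. In WT, 15 of 25 rose and none fell. Of all genes tested, 7.96% rose and 8.38% fell in the knockout, and 9.74% rose and 12.3% fell in WT. Jun, a subunit of the AP-1 factor, was at 151, 125 and 84 CPM in knockout PRA and at 37.7, 20.3, 19 and 13.2 CPM in knockout vehicle (log2 fold change 2.41, edgeR adjusted p = 0.00023). Egr1 was at 143, 115 and 82.3 CPM in knockout PRA and at 12 to 36.5 CPM in knockout vehicle (log2 fold change 2.41, edgeR adjusted p = 0.0132). Neither overlapped between the groups. Atf3 was at 8.97, 10.8 and 2.23 CPM in knockout PRA, with replicate 3 well under the other libraries, and at 0.535 to 1.05 CPM in knockout vehicle (log2 fold change 3.27, edgeR adjusted p = 0.000821). Maff, a small bZIP factor, averaged 28.2 ± 11.1 CPM in knockout PRA and 3.94 ± 1.31 CPM in knockout vehicle (log2 fold change 2.85, edgeR adjusted p = 5.04e-05). Of 14 Kruppel-like factors 7 rose and none fell, among them Klf4, at 3.12, 4.61 and 4.01 CPM in knockout PRA and 0.928 to 1.18 CPM in knockout vehicle.

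Growth arrest and cell stress genes followed in smaller numbers. Of 22 p53 targets and growth arrest genes, 8 rose and none fell, where 7.96% and 8.38% of all genes did. Trp53inp1, a p53 partner in stress-induced autophagy and cell death, averaged 114 ± 10.9 CPM in knockout PRA and 17.6 ± 5.36 CPM in knockout vehicle (SD, n = 3 and 4; log2 fold change 2.69 ± 0.28, edgeR adjusted p = 8.02e-06). Gadd45b was at 9.03, 15.1 and 8.83 CPM in knockout PRA and at 1.04 to 2.38 CPM in knockout vehicle, and rose by 2.67 on the log2 scale (edgeR adjusted p = 1.63e-05). Gdf15, a stress hormone that lowers appetite through the hindbrain, was at 37.4, 30 and 15.9 CPM in knockout PRA and at 1.81 to 6.55 CPM in knockout vehicle (log2 fold change 2.74 ± 0.45, edgeR adjusted p = 0.000705). These genes did not overlap between the groups. Of 29 hypoxia and glycolysis genes 10 rose and none fell, but 5 rose without knockout PRA replicate 2. Pfkfb3, the kinase that makes the activator of glycolysis fructose 2,6-bisphosphate, averaged 18.4 ± 7.22 CPM in knockout PRA and 4.65 ± 1.85 CPM in knockout vehicle (log2 fold change 1.99, edgeR adjusted p = 0.00125). Of 20 cytosolic heat shock genes 5 rose and none fell, led by Hspb8 at 308 ± 37 CPM in knockout PRA and 142 ± 17.9 CPM in knockout vehicle. Without knockout PRA replicate 2, 3 of them rose.

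Few genes of the unfolded protein response passed the threshold. Of 32 genes of the unfolded protein and integrated stress response 4 rose (Herpud1, Atf6, Sesn2 and Ppp1r15a) and 1 fell in the knockout. Among all genes tested, 7.96% rose and 8.38% fell there. In WT 12 of the 32 rose and 1 fell, where 9.74% and 12.3% of all genes did. Herpud1, which helps remove proteins from the endoplasmic reticulum, averaged 854 ± 94.5 CPM in knockout PRA and 331 ± 31.4 CPM in knockout vehicle (log2 fold change 1.37, edgeR adjusted p = 1.63e-05). The gene that fell was Xbp1, the transcription factor whose spliced form drives this response, described here after its values were seen. Xbp1 was at 74.3, 98.5 and 84.6 CPM in knockout PRA and at 177, 96.5, 167 and 160 CPM in knockout vehicle. Vehicle replicate 2 lay among the PRA libraries, and the log2 fold change was -0.81 ± 0.19 (edgeR adjusted p = 0.00713, and at most 0.0425 with a library left out). In WT it averaged 258 CPM after PRA and 166 CPM after vehicle, a log2 fold change of 0.64 (edgeR adjusted p = 0.013). The difference between the genotypes, -1.45, passed the test (edgeR adjusted p = 0.0123, and at most 0.043 with a knockout library left out).

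**Figure D2:**
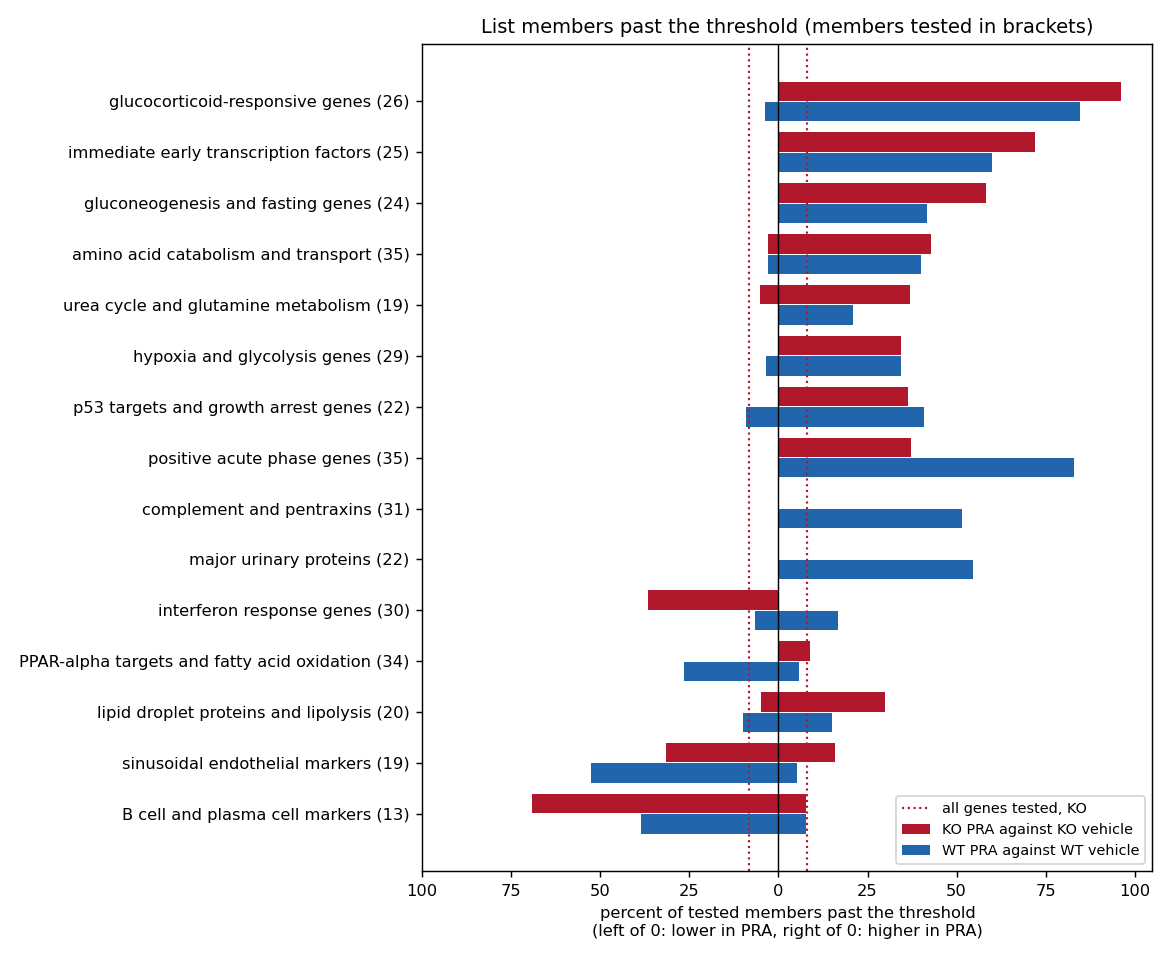
Percent of the tested members of 15 gene lists that were higher (right) or lower (left) past the threshold, in knockout PRA against knockout vehicle (upper bar) and in WT PRA against WT vehicle (lower bar), with dotted lines at the knockout's background of 7.96% and 8.38%. Glucocorticoid, immediate early and fasting genes reach far past the background in both genotypes, complement and major urinary protein genes have bars for WT but none for the knockout, and interferon genes extend to the left in the knockout.

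Positive acute phase genes, the group that IL-6 is best known to drive, rose in part. Of 35, 13 rose and none fell in the knockout, where 7.96% and 8.38% of all genes did. Their median log2 fold change was 0.37. In WT 29 rose (where 9.74% of all genes tested rose and 12.3% fell) and none fell, with a median of 1.40. For 13 of the 35 the difference between the responses passed the test, where 0.475% of all genes did. Saa4, a constitutive serum amyloid A, was at 1194, 857 and 940 CPM in knockout PRA and at 249, 421, 346 and 330 CPM in knockout vehicle. Its log2 fold change of 1.57 ± 0.20 (edgeR adjusted p = 3.05e-05) stood beside 1.55 in WT. Cd14, the co-receptor for endotoxin, was at 7.46, 9.94 and 8.66 CPM in knockout PRA and at 2.12 to 2.71 CPM in knockout vehicle (log2 fold change 1.78 ± 0.26, edgeR adjusted p = 0.000114). In WT Cd14 averaged 11.1 CPM after PRA and 2.39 CPM after vehicle. Both genes separated the knockout groups fully, and neither differed between genotypes past the threshold.

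Other acute phase genes rose less in the knockout than in WT. Serpina3n, a secreted protease inhibitor, was at 1131, 1157 and 1093 CPM in knockout PRA and at 482, 518, 510 and 468 CPM in knockout vehicle. This rise was steady across libraries, with a log2 fold change of 1.19 ± 0.13 (edgeR adjusted p = 2.17e-06), against 3.12 in WT. The difference was -1.93 (edgeR adjusted p = 3.39e-06). Lcn2, the siderophore-binding protein lipocalin 2, was at 67.2, 37.2 and 27 CPM in knockout PRA and at 9.61, 5.4, 4.14 and 2.46 CPM in knockout vehicle (log2 fold change 3.02 ± 0.35, edgeR adjusted p = 2.77e-05). In WT it averaged 882 CPM after PRA and 6.5 CPM after vehicle, and the difference in response was -4.06 (edgeR adjusted p = 0.000434). Saa1 was at 332, 214 and 151 CPM in knockout PRA and at 120, 64.1, 49 and 138 CPM in knockout vehicle (log2 fold change 1.32 ± 0.38, edgeR adjusted p = 0.0243), against 7613 CPM in WT PRA on average. The rise of Saa1 was lost without knockout PRA replicate 1 or 2 or vehicle replicate 2 or 3, with adjusted p of 0.123, 0.0514, 0.0611 and 0.059, and it was 0.114 with the knockout groups fitted alone.

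Haptoglobin and lipopolysaccharide binding protein depended on a library. Hp was at 12088, 5835 and 5594 CPM in knockout PRA and at 5785, 4635, 3707 and 3793 CPM in knockout vehicle, and Lbp was at 456, 206 and 233 CPM in knockout PRA and at 184, 182, 136 and 154 CPM in knockout vehicle. The high library in both was PRA replicate 1. Their log2 fold changes of 0.81 and 0.86 (edgeR adjusted p = 0.013 and 0.00544) were 0.35 and 0.42 without it (adjusted p = 0.181 and 0.0572), and 10 genes of the list then rose. With the knockout groups fitted alone the adjusted p was 0.11 for Hp and 0.0677 for Lbp. Fibrinogen beta, Fgb, was at 8726, 7347 and 7151 CPM in knockout PRA and at 5560 to 8586 CPM in knockout vehicle, with overlapping groups (log2 fold change 0.20, edgeR adjusted p = 0.44). Orm2 and Socs3, the feedback inhibitor of the IL-6 receptor, also overlapped, with log2 fold changes of 0.40 and 0.25 in the knockout (edgeR adjusted p = 0.3 and 0.747). In WT Orm2 and Socs3 rose by 4.43 and 1.89. The difference passed the test for Orm2 (edgeR adjusted p = 1.32e-05) and not for Socs3 (edgeR adjusted p = 0.366). Saa1 and Saa2, the Orm genes and the Serpina3 genes have near-identical copies, so the division of reads among them is uncertain.

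**Figure D3:**
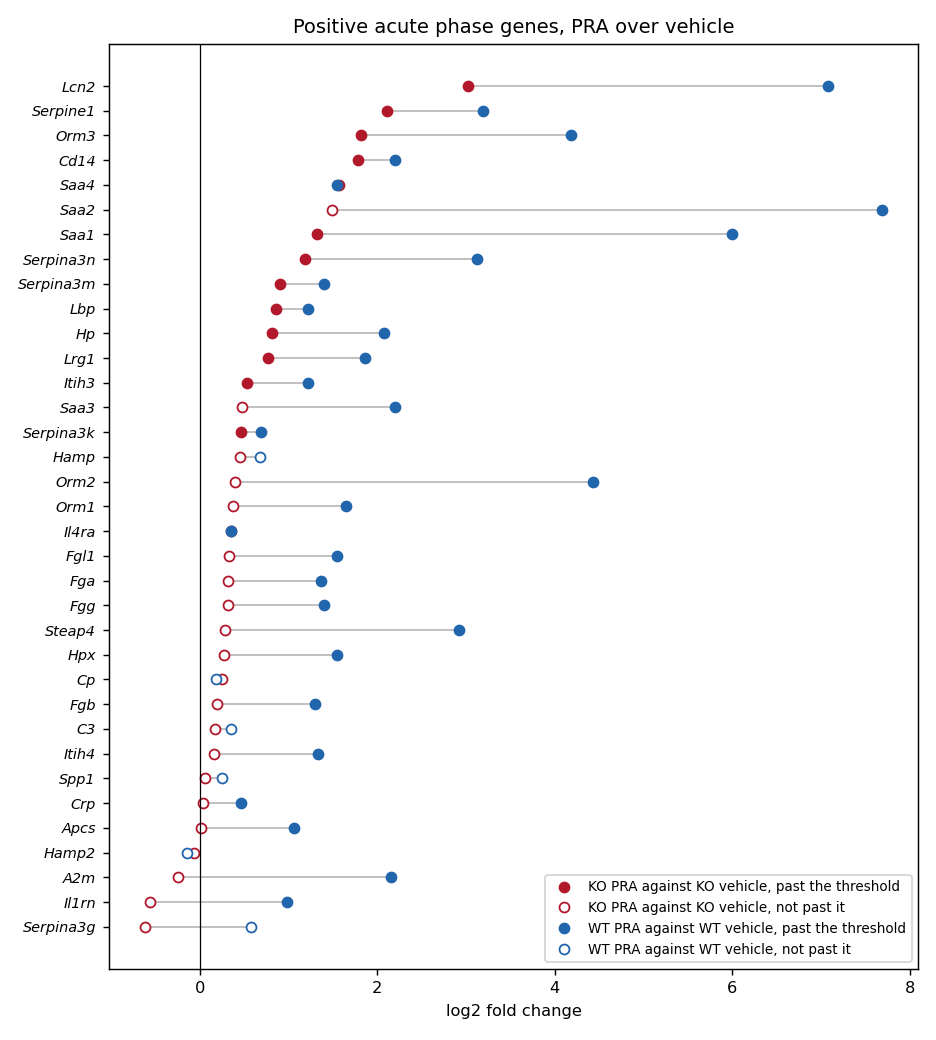
Log2 fold change of PRA over vehicle for the 35 positive acute phase genes tested, in the knockout (red) and in WT (blue), filled where past the threshold. The knockout values lie below the WT values for 31 of the 35 genes, while Saa4 is at 1.57 in the knockout and 1.55 in WT.

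Several genes that IL-6 type receptors are known to induce rose. Of 22 genes of the IL-6 receptor, STAT3 and feedback list 7 rose and 2 fell in the knockout, and 8 rose and 2 fell in WT. Over all genes tested 7.96% rose and 8.38% fell in the knockout, and 9.74% rose and 12.3% fell in WT. With a knockout library left out, 5 or 6 of the 22 rose and 1 to 3 fell. Cebpb, the C/EBP factor once called NF-IL6, was at 437, 474 and 418 CPM in knockout PRA and at 172, 134, 147 and 135 CPM in knockout vehicle, with no overlap (log2 fold change 1.59 ± 0.11, edgeR adjusted p = 9e-09). Pim3, a kinase gene, was at 225, 221 and 220 CPM in knockout PRA and at 61.7 to 90.7 CPM in knockout vehicle (log2 fold change 1.53 ± 0.15, edgeR adjusted p = 1.11e-06). Neither differed from WT past the threshold (edgeR adjusted p of the difference 0.64 and 0.941). Il1r1, the signalling receptor for interleukin-1, was at 78.2, 68.6 and 95.5 CPM in knockout PRA and at 18 to 24.2 CPM in knockout vehicle (log2 fold change 1.91 ± 0.33, edgeR adjusted p = 0.000854). Of 29 NF-kB, chemokine and adhesion genes, 8 rose and 7 fell, where 7.96% and 8.38% of all genes did. Nfkbia, the inhibitor of NF-kB, rose to 74.4 ± 2.47 CPM in knockout PRA, against 36.4 ± 2.97 CPM in knockout vehicle, and the chemokine gene Cxcl12 fell to 118 ± 19.2 CPM, against 218 ± 27 CPM (SD, n = 3 and 4; log2 fold changes 1.03 and -0.89, edgeR adjusted p = 4.3e-06 and 0.00025). Without knockout PRA replicate 2, 5 of the 29 rose and 4 fell.

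Interferon response genes moved down or not past the threshold in the knockout. Of 30 tested, 11 fell and none rose, with a median log2 fold change of -0.58, where 8.38% of all genes fell. In WT 5 rose and 2 fell, with a median of 0.26, where 9.74% of all genes rose and 12.3% fell. With a knockout library left out, 9 to 12 fell and none rose. Iigp1, an immunity-related GTPase, was at 168, 94.6 and 139 CPM in knockout PRA and at 361, 220, 268 and 237 CPM in knockout vehicle. The groups did not overlap, and the log2 fold change was -1.02 ± 0.18 (edgeR adjusted p = 0.000495), beside 0.03 in WT. Ifi47, of the same family, was at 8.19, 5.3 and 5.22 CPM in knockout PRA and at 25.2, 10.5, 18.4 and 11.4 CPM in knockout vehicle (log2 fold change -1.39, edgeR adjusted p = 0.00193). The transcription factor Irf1 averaged 21.5 ± 2.15 CPM in knockout PRA, against 37.7 ± 3.17 CPM in knockout vehicle (SD, n = 3 and 4; log2 fold change -0.81, edgeR adjusted p = 5.32e-05). Irf1 fell in WT as well, by 0.52 on the log2 scale. The knockout's log2 fold change was below that of WT for all 30 genes, and for 45.5% of all genes tested. The same held for 10 of 10 neutrophil markers, 15 of 16 Kupffer cell markers, 13 of 14 monocyte and macrophage markers and 12 of 13 B cell and plasma cell markers, so this position was not particular to interferon genes. The monocyte and macrophage markers had a median log2 fold change of -0.57 in the knockout and 0.55 in WT, and the part of these cells in the interferon values was not tested. The difference passed the test for Irgm1 alone among the 30 (-0.88, edgeR adjusted p = 0.0216), which had 32.4 CPM in knockout PRA and 47.9 CPM in knockout vehicle on average. That call was lost without knockout PRA replicate 2 or 3 or vehicle replicate 3, with an adjusted p of at most 0.0861. For Iigp1 the adjusted p of the difference was 0.0511.

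**Figure D4:**
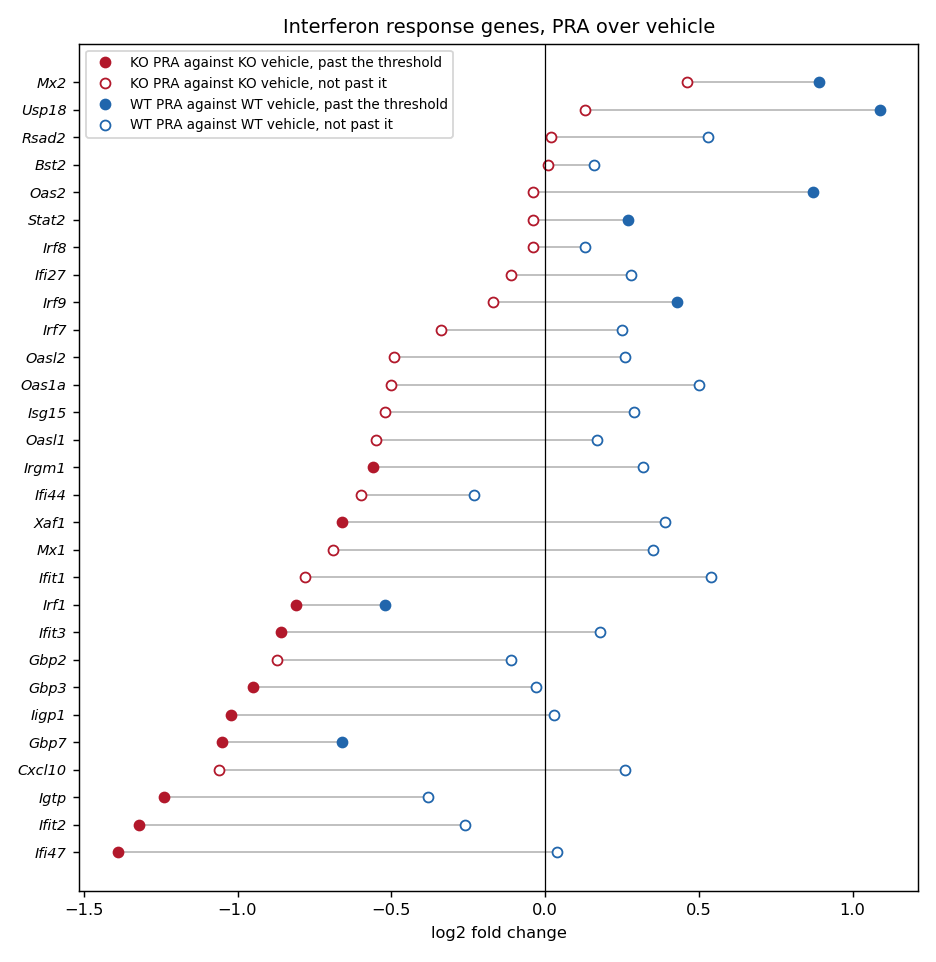
Log2 fold change of PRA over vehicle for 29 of the 30 interferon response genes tested, in the knockout (red) and in WT (blue), filled where past the threshold. Every knockout value lies to the left of the WT value of the same gene, and 10 of the knockout values shown are past the threshold below 0.

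Complement genes and major urinary protein genes did not pass the threshold in the knockout. None of 31 complement and pentraxin genes did, with a median log2 fold change of 0.10, while 16 rose in WT, with a median of 0.36. None of 22 major urinary protein genes did, with a median of -0.11, while 12 rose in WT, with a median of 0.70, though near-identical copies make single urinary protein genes uncertain. Of all genes tested, 7.96% rose and 8.38% fell in the knockout, and 9.74% rose and 12.3% fell in WT. No difference between genotypes passed the test in either list, where 0.475% of all genes passed it. A p that misses the threshold does not show that the genes were unchanged.

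Genes of fat storage rose in part. Of 20 lipid droplet and lipolysis genes 6 rose, with and without each library, and 1 fell, while 3 rose and 2 fell in WT. Of all genes tested, 7.96% rose and 8.38% fell in the knockout, and 9.74% rose and 12.3% fell in WT. The lipid droplet gene that fell in the knockout, G0s2, lost the call when any 1 PRA library was left out. It was also lost without vehicle replicate 1 or 3 (edgeR adjusted p at most 0.103). Plin5, the perilipin that ties droplets to mitochondria, was at 162, 239 and 147 CPM in knockout PRA and at 69.3, 50.3, 51.9 and 62.6 CPM in knockout vehicle. The log2 fold change was 1.64 ± 0.19 (edgeR adjusted p = 7.51e-06), against 0.41 in WT (edgeR adjusted p = 0.1). The difference of 1.24 passed the test (edgeR adjusted p = 0.0258), but not without knockout PRA replicate 2 or vehicle replicate 2 or 3, where the adjusted p was at most 0.0961. Plin4 was at 29.9, 25.8 and 34.5 CPM in knockout PRA and at 3.25, 3.23, 2.63 and 2.59 CPM in knockout vehicle. Lpin1, the phosphatidate phosphatase and coactivator lipin 1, was at 403, 532 and 681 CPM in knockout PRA and at 93.2, 114, 123 and 131 CPM in knockout vehicle. Both genes were well apart between the groups, with log2 fold changes of 3.36 ± 0.45 and 2.22 ± 0.29 (edgeR adjusted p = 0.000118 and 6.11e-05). WT had 1.25 and 0.80, and the differences of 2.11 and 1.43 did not pass the test (edgeR adjusted p = 0.188 and 0.168). Vehicle livers averaged 2.93 CPM of Plin4 in the knockout and 9.43 CPM in WT, and 115 CPM of Lpin1 in the knockout and 310 CPM in WT.

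Of 34 PPAR-alpha and fatty acid oxidation genes 3 rose and none fell in the knockout, where 7.96% of all genes rose and 8.38% fell, so the share that rose was near the background. Without vehicle replicate 2, 3 of them fell. In WT 2 rose and 9 fell, where 9.74% and 12.3% of all genes did. Angptl4, an inhibitor of lipoprotein lipase, was at 364, 362 and 363 CPM in knockout PRA and at 184, 149, 130 and 154 CPM in knockout vehicle (log2 fold change 1.23 ± 0.21, edgeR adjusted p = 0.00054). Ucp2 averaged 65.4 ± 5.8 CPM in knockout PRA and 35.1 ± 1.6 CPM in knockout vehicle. None of 23 fatty acid synthesis genes passed the threshold in the knockout, and 1 rose and 7 fell in WT. Of 27 genes around bile acids, 5 rose and 3 fell, where 7.96% and 8.38% of all genes did. Beside Cyp7a1, the alternative pathway's Cyp27a1 rose to 886 ± 118 CPM in knockout PRA, against 600 ± 49.6 CPM in knockout vehicle (SD, n = 3 and 4; log2 fold change 0.56, edgeR adjusted p = 0.00132). Nr0b2, the repressor SHP that acts on Cyp7a1, was at 42, 31.1 and 32.1 CPM in knockout PRA and at 8.79, 8.45, 11.3 and 5.42 CPM in knockout vehicle (log2 fold change 2.04 ± 0.44, edgeR adjusted p = 0.00494). Normal livers held 24.5 CPM of Nr0b2, closer to the knockout PRA libraries than to the knockout vehicle libraries. Insig2, a brake on sterol synthesis, alone among 25 cholesterol genes passed the threshold, at 422, 654 and 584 CPM in knockout PRA and 156 to 249 CPM in knockout vehicle (log2 fold change 1.44 ± 0.27, edgeR adjusted p = 0.00156). Nuclear receptors divided, with 6 of 39 higher and 6 lower: Hnf4a rose to 858 ± 148 CPM in knockout PRA, against 520 ± 63.3 CPM in knockout vehicle, and Nr1i3, the receptor CAR, fell to 108 ± 32.7 CPM, against 250 ± 40.3 CPM. The fall of Nr1i3 was lost without knockout PRA replicate 2 (edgeR adjusted p = 0.0627), when 4 nuclear receptors rose and 3 fell.

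The response without IL-6 was set beside the WT response, which shares no library with it. Of the 2544 genes that passed the threshold in the knockout, 1594 passed it in the same direction in WT, which is 62.7% of the knockout list and 46.4% of the WT list, and 8 passed it in opposite directions. The sign of the fold change was the same in WT for 95.6% of the knockout list and for 74.8% of all genes. Across all 15570 genes, which are not independent replicates, Pearson's r of the 2 log2 fold changes was 0.65. The 397 genes that rose at least 2-fold in the knockout had a median log2 fold change of 1.54 there and of 1.29 in WT. The 469 that fell had -1.43 and -1.10. Both sets were chosen by their knockout values, so these medians cannot compare the size of the 2 responses. Against non-injected livers, which are WT, all knockout PRA libraries were above all normal libraries for 985 of the 1240 higher genes and below them for 962 of the 1304 lower genes, where 16.2% and 16.4% of all genes tested had those positions.

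The response itself differed between genotypes past the threshold for 74 genes, of which 68 had the lower log2 fold change in the knockout and 6 the higher. DESeq2 gave 172 such genes, and leaving out knockout PRA replicate 2 or vehicle replicate 3 gave 38 and 43. Of the 74, 39 passed the threshold in WT and not in the knockout, and 35 passed it in the knockout. Of these 35, 16 had a smaller or opposite response in the knockout and 19 a response of larger size. Besides acute phase genes the 74 included Tifa, an adaptor for TRAF6 signalling, at 3.57, 4.28 and 5.27 CPM in knockout PRA and 4.23 to 8.85 CPM in knockout vehicle, with overlapping groups and a mean of 41.4 CPM in WT PRA. Its difference was -3.52 (edgeR adjusted p = 2.04e-05). Smad9, a transcription factor of BMP signalling, fell in both genotypes, to 5.53 CPM in knockout PRA, against 10.6 CPM in knockout vehicle, and to 1.81 CPM in WT PRA, against 11.8 CPM in WT vehicle. The knockout call was lost without PRA replicate 1 (edgeR adjusted p = 0.0833). Its difference of 1.74 (edgeR adjusted p = 0.0247) was lost without knockout PRA replicate 2 or 3 or vehicle replicate 1 or 3, with an adjusted p of at most 0.0963. Among the 8 genes with opposite directions, Cobl, an actin nucleator described here after its values were seen, was at 8.81, 6.75 and 8.56 CPM in knockout PRA and at 17.6, 12.8, 12.5 and 13.8 CPM in knockout vehicle, with no overlap. Its log2 fold change was -0.81 in the knockout and 0.84 in WT (difference -1.66, edgeR adjusted p = 0.00162).

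**Figure D5:**
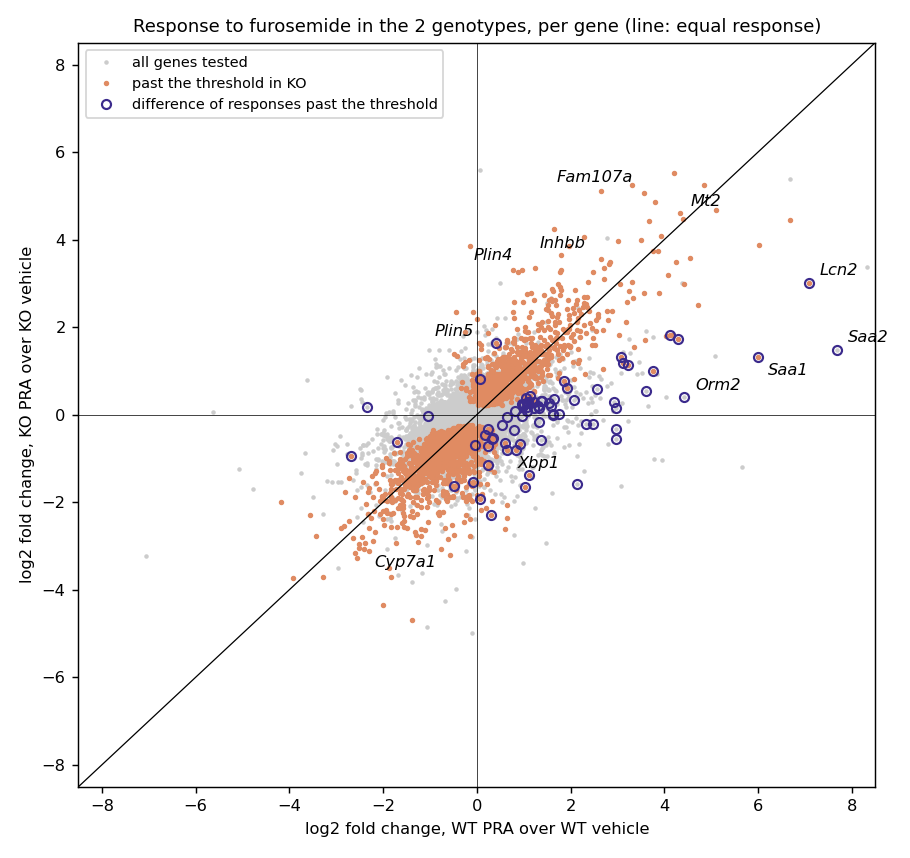
Log2 fold change in the knockout (vertical) against that in WT (horizontal) for all 15570 genes tested, with the genes past the threshold in the knockout in orange, the 74 genes whose response differed past the threshold circled, and a line of equal response. Most orange points follow the line, and 68 of the 74 circles lie below it, with Saa2, Lcn2, Saa1 and Orm2 farthest to the right among those labelled.

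Markers of the other cells of the liver moved in several lists, and their part in the results above was not tested. Over all genes tested, 7.96% rose and 8.38% fell in the knockout. Of 16 Kupffer cell markers none passed the threshold, and their summed level was 906 to 984 CPM in knockout PRA and 962 to 1015 CPM in knockout vehicle. Of 19 sinusoidal endothelial markers 3 rose and 6 fell, with sums of 443 to 562 CPM in knockout PRA and 567 to 627 CPM in knockout vehicle, and 1 rose without knockout PRA replicate 2 or 3. Kdr, the VEGF receptor 2, was at 9.76, 11.4 and 16.3 CPM in knockout PRA and at 29.8, 31.5, 30.2 and 32.7 CPM in knockout vehicle. Lyve1, a hyaluronan receptor of the same cells, was at 35.8, 56.4 and 42.8 CPM in knockout PRA and at 16.2, 10.1, 12.3 and 23.2 CPM in knockout vehicle. Neither overlapped, and they moved in opposite directions, with log2 fold changes of -1.31 ± 0.18 and 1.54 ± 0.28 (edgeR adjusted p = 4.94e-05 and 0.00135). Of 13 B cell and plasma cell markers 9 fell and 1 rose, with a median of -1.63, and 6 fell without knockout PRA replicate 3. Their sums were 5.46 to 10.3 CPM in knockout PRA and 11.6 to 18.9 CPM in knockout vehicle.

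Of 10 neutrophil markers tested 4 rose, Lcn2 among them, where 7.96% of all genes rose and 8.38% fell. The markers' sums were 32.4 to 82.3 CPM in knockout PRA and 8.05 to 17 CPM in knockout vehicle. Lcn2, described above as an acute phase gene, alone was at 27 to 67.2 CPM and 2.46 to 9.61 CPM in these groups. It thus held a large part of the sums. The granulocyte antigen gene Ly6g averaged 0.0963 CPM in knockout PRA and 0.00974 CPM in knockout vehicle. The floor of 3 counts is 0.0467 to 0.0699 CPM in the knockout libraries, so Ly6g rests on very few counts. Without knockout PRA replicate 1, 2 markers rose. Of 14 monocyte and macrophage markers 3 fell and none rose, with sums of 52.4 to 70.8 CPM in knockout PRA and 60.7 to 81.8 CPM in knockout vehicle, and of 17 stellate cell markers 3 fell and none rose, with sums of 335 to 399 CPM in knockout PRA and 387 to 491 CPM in knockout vehicle. Of 19 pericentral hepatocyte markers 5 fell and none rose (3 fell without knockout PRA replicate 1), and of 17 periportal markers 6 rose and none fell, though only 2 rose without knockout PRA replicate 2 or without vehicle replicate 1. Sp5 and Nkd1, targets of Wnt signalling in pericentral hepatocytes, averaged 2 ± 0.128 and 4.17 ± 0.273 CPM in knockout PRA, against 5.94 ± 1.16 and 7.69 ± 1.01 CPM in knockout vehicle (SD, n = 3 and 4; log2 fold changes -1.57 and -0.89, edgeR adjusted p = 0.000175 and 0.00013). The pericentral enzyme Cyp2e1 did not pass the threshold, with a log2 fold change of 0.17 (edgeR adjusted p = 0.564). Of 13 kidney and pancreas markers 3 were tested and none passed the threshold, with sums over the list of 19.4 to 24.8 CPM in knockout PRA and 14.7 to 31.8 CPM in knockout vehicle. The pancreatic elastase gene Cela1 made up most of these sums, at 19.3 to 24.7 CPM in knockout PRA and 14.7 to 26.8 CPM in knockout vehicle. The kidney genes Kap and Slc34a1 stood apart in vehicle replicate 3, at 3.61 and 1.06 CPM, and were at most 0.0892 and 0.0255 CPM in knockout PRA and 0.0973 and 0.0216 CPM in the other knockout vehicle libraries. The median log2 fold change of the 3 tested genes was -3.99, and 0.22 without vehicle replicate 3. Aqp2, Prss1, Cpa1, Pnlip, Amy2a5 and Try5 were at 0 in all 7 knockout libraries.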

How the data were processed

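Libraries were poly(A)-selected mouse liver RNA, sequenced as read pairs of 150 bases per the labels. Per the submitters' processing notes the tools were HISAT2 2.2.1, SAMtools 1.13 and HTSeq 0.11.3 with the GRCm39 build. Which annotation was used, and whether counting used strand, is not given in the sources used here, so overlapping and antisense genes cannot be told apart. The deposited values are raw counts of reads per gene, made by the authors. Lines that name no gene were left out; 6.43% to 6.97% of reads had no feature and 15.37% to 18.7% no unique position. Groups came from the sample labels.

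All 19 libraries were fitted by group with edgeR 4.0.16 (TMM, filterByExpr, robust quasi-likelihood, R 4.3.3), and p-values were adjusted over all 15570 genes with a Benjamini-Hochberg threshold of 0.05. The knockout response, the WT response and their difference were contrasts of that fit. CPM are TMM-scaled. The code was tested on simulated data. Alternatives were DESeq2 1.42.0, limma-voom (limma 3.58.1), RLE and upper quartile scaling, other filters, a 1.5-fold threshold, fits of fewer groups, a replicate block and leaving out each knockout library.

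The members and lists were chosen with earlier results of these data known. Named genes are the 4 markers, the 14 largest changes each way (a mean of at least 2 CPM, no overlap), up to 4 members of each list by smallest p, the 6 largest differences each way and a fixed set of known acute phase and stress genes. Xbp1, Cobl, Jun, Egr1, Tsc22d3, Tfcp2l1, Ifi47, Irgm1, Nr0b2, G0s2, Ly6g, Cyp2e1 and the kidney and pancreas genes were named after their values were seen. Promoters are RefSeq windows on GRCm38.p6, matched by symbol for 4 genes; no coordinate was carried to GRCm39. Libraries of a group differed by more than sampling noise, with a chi-square per degree of freedom of at least 35.75 among knockout pairs.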

Additional observations from a re-analysis of the deposited data

Results flagged for a closer look

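The response differed between genotypes past the threshold (edgeR, adjusted p in brackets) for 17 of the genes named by rule. The knockout's log2 fold change minus that of WT was negative for 12: Saa2 at -6.19 (0.00115), Saa1 at -4.67 (0.000425), Lcn2 at -4.06 (0.000434), Orm2 at -4.03 (1.32e-05), Tifa at -3.52 (2.04e-05), Syt12 at -3.07 (0.00651), Serpina3e-ps at -2.09 (3.39e-06), Serpina3n at -1.93 (3.39e-06), Orm1 at -1.29 (0.00193), Fgb at -1.10 (0.0247), Lrg1 at -1.09 (0.0361) and Amacr at -0.65 (0.0247). It was positive for Smad9 at 1.74 (0.0247), Plin5 at 1.24 (0.0258), Txnl4b at 1.08 (0.0333), Ttl at 1.01 (0.0251) and Zfp703 at 0.75 (0.0247). The differences of Amacr, Fgb, Lrg1, Plin5, Smad9, Ttl, Txnl4b and Zfp703 were lost when some single knockout library was left out, and the other 9 were past the threshold without each.

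In 13 sets of 4 vehicle libraries 1 library lay far from the other 3. In knockout vehicle replicate 2 this was Agt at 898 CPM (others 725 to 728), Fam107a at 2.99 (0.37 to 0.777), Nrep at 2.42 (5.38 to 5.81), Sirt1 at 5.86 (3.57 to 3.93) and mt-Nd5 at 8498 (5483 to 5671). In knockout vehicle replicate 1 it was Bcat2 at 20.1 CPM (24.6 to 25.3), Cda at 10.8 (6.48 to 7.07), Foxj3 at 6.8 (7.82 to 7.99), Got1 at 197 (401 to 422), Saa2 at 44.7 (9.56 to 15) and Zfp622 at 40.1 (33.8 to 34.8). Hmox1 was at 36.1 CPM in knockout vehicle replicate 3 (18.2 to 20.9), and Zfp703 at 17.3 CPM in WT vehicle replicate 2 (13.5 to 14.1). Chance alone marks about 1 in 20 such sets. Whether 13 is more than chance would give among all sets looked at was not tested.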

How the results depend on the processing

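The main counts were 1240 higher, 1304 lower, 866 changed at least 2-fold and 74 differences, with 62.7% of the knockout genes past the threshold in the same direction in WT. DESeq2 gave 172 differences. The 1 CPM filter gave a share of 64.8%, limma-voom 66.3%, and the knockout groups fitted alone 66.1%. Testing against a 1.5-fold change gave 248 higher, 169 lower, 409 at least 2-fold, 17 differences and a share of 57.8%. Leaving out each knockout library gave 913 to 1252 higher, 763 to 1247 lower, 664 to 884 at least 2-fold, 38 to 95 differences and a share of 59.8% to 68.8%. Replicate numbers did not pair the knockout libraries (correlations of same-numbered deviations 0.19, -0.12 and -0.11); with a replicate block there were 1077 higher, 1098 lower, 783 at least 2-fold and 74 differences, with a share of 64.8%. Among the values named by rule, none that passed the threshold in the main or the alternative run changed direction. Changes of direction in values past it in neither run were not counted. Of 186 named values, 28 were no longer past the threshold without knockout PRA replicate 2, and 93 when tested against 1.5-fold. The causes were not tested. With 3 and 4 libraries and genotype fixed by label alone, small changes may be missed, and a missed threshold does not show equality.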

Other observations

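Clock genes, which keep daily time in hepatocytes, moved in part. Of 21, 6 rose and 1 fell in the knockout, where 7.96% and 8.38% of all genes did. Without knockout PRA replicate 3 or vehicle replicate 3, 3 rose. Rora, the nuclear receptor that activates Bmal1 transcription, was at 39.6, 40.6 and 38.1 CPM in knockout PRA and at 21.8, 27, 24.1 and 21.4 CPM in knockout vehicle, with no overlap (log2 fold change 0.74, edgeR adjusted p = 9.55e-05). Ciart, a circadian repressor, was at 26, 46.8 and 39.9 CPM in knockout PRA and at 1.33, 3.65, 7.09 and 13.1 CPM in knockout vehicle. Its log2 fold change was 2.59 (edgeR adjusted p = 0.0104), 3.22 without vehicle replicate 4, and its adjusted p was 0.0862 with the knockout groups fitted alone.

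Solute carriers moved in both directions, and more of them rose than fell. Of 274, 31 rose and 16 fell in the knockout, where 7.96% of all genes rose and 8.38% fell, and 19 rose and 8 fell without knockout PRA replicate 2. Slc25a51, the mitochondrial NAD carrier, averaged 132 ± 23.3 CPM in knockout PRA and 40.5 ± 11.1 CPM in knockout vehicle, and Slc6a6, the taurine transporter, averaged 31.2 ± 3.39 CPM in knockout PRA and 63.1 ± 6.68 CPM in knockout vehicle (SD, n = 3 and 4; log2 fold changes 1.71 and -1.02, edgeR adjusted p = 6.26e-05 and 3.13e-06). Slc39a14, the hepatic importer of zinc, manganese and iron, was at 124, 184 and 222 CPM in knockout PRA and at 83.3 to 109 CPM in knockout vehicle, with no overlap (log2 fold change 0.88, edgeR adjusted p = 0.000594). F3, tissue factor, which starts coagulation, fell to 2.78 ± 0.208 CPM in knockout PRA, against 6.78 ± 1.74 CPM in knockout vehicle (SD, n = 3 and 4; edgeR adjusted p = 0.00168).

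Of 342 zinc finger genes named Zfp 17 rose and 41 fell in the knockout, where 7.96% and 8.38% of all genes did, and 9 rose and 74 fell in WT, where 9.74% and 12.3% did. Without knockout PRA replicate 3, 8 rose. Without knockout PRA replicate 2, 18 fell. None of 84 cytosolic ribosomal protein genes passed the threshold in the knockout. Among the 397 genes that rose at least 2-fold, knockout vehicle replicate 2 was the highest of the 4 vehicle libraries for 41.3%.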
